A study of Homo sapiens with 6 samples.

Results

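The immediate early genes of the early growth response (EGR), immediate early response (IER) and Krüppel-like factor (KLF) families were examined with and without the peptide hormone relaxin-2 in cells of OVCAR8, a long-established line derived from human ovarian carcinoma. The set is a fixed list of names: EGR1, EGR2, EGR3, IER2, IER3, IER5, KLF2, KLF4, KLF6 and KLF10. All 10 were found by symbol in the authors' merged count table, out of 58037 gene IDs in the library tables. Both groups of cells were plated in serum and then kept without it for 16 hours. One group (3 libraries, numbered 2 to 4) was left untreated, with no vehicle named in the labels, and the other (3 libraries, numbered 1 to 3) received 50 ng/mL of recombinant human relaxin-2 for 8 hours. The labels name triplicates of a single cell line and do not say whether these were separate cultures, so the p-values measure the spread between these libraries, which may be technical.

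Immediate early genes are transcribed within minutes of a growth factor, hormone or stress signal, without any need for new protein synthesis. Their promoters are read by serum response factor together with ternary complex factors such as ELK1, which ERK phosphorylates, and by CREB, which cAMP signalling reaches. Their mRNAs are short-lived, so that levels usually peak early and fall back within hours. EGR1, EGR2 and EGR3 are zinc finger transcription factors that bind GC-rich sites and share the corepressors NAB1 and NAB2. IER2 and IER5 are small nuclear proteins, IER5 with a role in the heat shock response, and IER3 is a regulator of cell survival that NF-kB and p53 induce. KLF2 and KLF4 are zinc finger factors tied to quiescence and differentiation, KLF6 is a tumour suppressor with splice forms of opposite effect, and KLF10 is induced by TGF-beta.

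The promoter windows that hold a serum response element core, the CArG box, are shown first, because this element is the one that serum response factor reads. RefSeq promoters on GRCh38.p14 (250 bases before to 50 after each start) were searched for 7 of the 10 genes, with 9 start sites. EGR1, IER2, IER5, KLF2, KLF4 and KLF6 had 1 each and EGR2 had 3. The promoters of EGR3, KLF10 and IER3 were not searched, so the motif counts of the set leave these genes out and say nothing about them. Capitals mark the CArG box and the sequences run 5′ to 3′ on the strand of the gene, at chr5:138465344-138465435 (plus strand) for EGR1 and at chr10:62816398-62816467 (minus strand) for EGR2, where the window belongs to 1 of its 3 starts.
EGR1: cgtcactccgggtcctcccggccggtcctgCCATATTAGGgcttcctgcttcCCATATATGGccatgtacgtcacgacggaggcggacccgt
EGR2: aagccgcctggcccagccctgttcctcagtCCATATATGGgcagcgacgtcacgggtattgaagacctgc

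EGR1 held 2 CArG boxes, which began 105 and 83 bases before the start, and EGR2 held 1, which began 71 bases before it. The promoters of IER2, IER5, KLF2, KLF4 and KLF6 held none. The second box of EGR1 and the box of EGR2 had the same letters. Among the 35116 RefSeq promoters, 1.29% held a CArG box on either strand, and 1.60% of the 27305 genes had it in at least 1 promoter, so EGR1 and EGR2 belong to a small class on this count. Both windows also held TGACG (read as CGTCA on the gene's strand), the core of the cAMP response element. It began 135 and 66 bases before the start of EGR1 and 54 before that of EGR2. A further match of EGR2, 110 bases before the same start, lay outside the window shown. This shorter motif was found in 4 of the 7 genes here, EGR1, EGR2, IER2 and KLF4, against 28.4% of all genes and 24.6% of all promoters. EGR2 counts with any of its 3 starts. The EGR site GCGNGGGCG was present in EGR1, EGR2, KLF2, KLF4 and KLF6, against 11.2% of all genes and 9.43% of all promoters. The CACCC box read by KLF proteins was present in EGR1, EGR2 and IER2, against 63.1% of all genes and 59.9% of all promoters. All motifs were searched on both strands. These matches describe letters in a 300-base window, not bound sites.

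The transcripts had few exons. In the GENCODE 29 transcript with the longest coding sequence, IER2 and IER5 had 1 exon, EGR1, EGR2, EGR3 and IER3 had 2, and KLF2, KLF4, KLF6 and KLF10 had 3 to 5. At most 2 exons were present in 6 of the 10, against 7.20% of the 12952 tested protein-coding genes, whose median was 9 exons. Transcript length was ordinary, with a median of 3033 bases against 3191. The 3′ UTR held the AU-rich pentamer ATTTA, a signal for rapid mRNA decay, in 9 of the 10, with IER2 as the exception, against 67.9% of the tested coding genes. IER3 had the densest set, 6 copies in 737 bases or 8.14 per kb, and IER5 the most copies, 10 in 3013 bases. The median of the coding genes was 1.60 per kb. Below it were EGR1 at 0.81, with 1 copy in 1234 bases, EGR3 at 1.07 and IER2 at 0. EGR2 at 1.65 and KLF6 at 1.69 were close to it. The longer motif TTATTTA was present in 3 of the 10, against 29.2% of the tested coding genes, a share close to that of the set.

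After serum starvation the 10 genes spanned a wide range of levels. Read counts scaled to library size (CPM, TMM-scaled) were divided by exon length to compare genes. In bulk RNA, fewer cells with a transcript and less of it per cell cannot be told apart. KLF6 was the highest with a median over the 6 libraries of 44.7 CPM per kb, followed by IER3 with 21.9, KLF10 with 11.4, IER5 with 9.49 and IER2 with 7.32. KLF4 followed with 3.50, EGR1 with 1.78, KLF2 with 1.37, EGR2 with 0.90 and EGR3 with 0.04. The order thus placed the 3 EGR genes and KLF2 at the bottom of the set. Neighbours in this order had separate ranges over the libraries except IER5 with IER2 and KLF2 with EGR2, whose ranges overlapped. KLF6 lay above 93.6% of tested protein-coding genes in level per kb, IER3 above 84.5%, EGR1 above 27.6% and EGR2 above 17.4%.

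**Figure D1:**
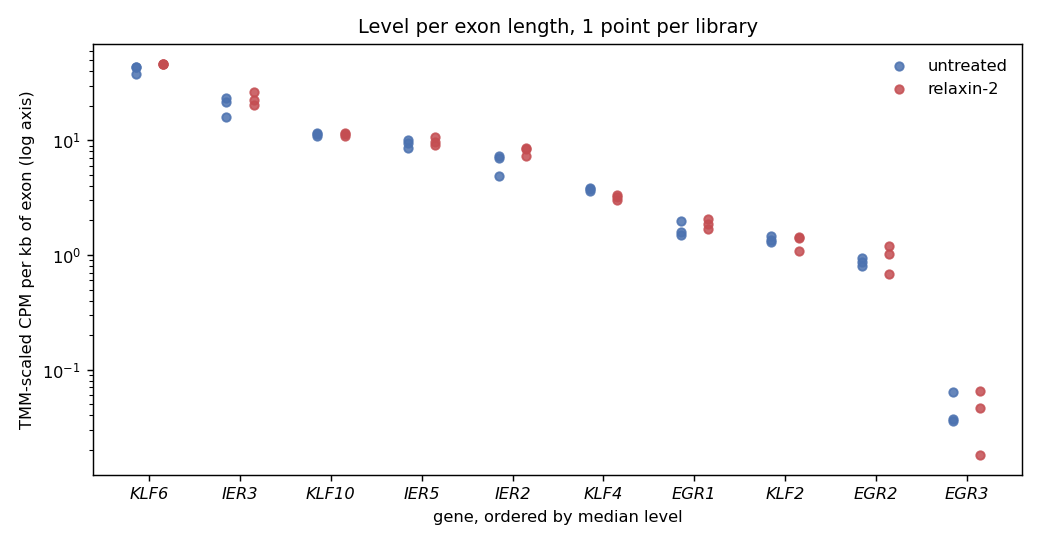
Level of each gene in TMM-scaled CPM per kb of exon on a log axis, with 1 point per library (3 untreated, 3 relaxin-2) and genes ordered by their median. KLF6 is the highest at a median of 44.7 and EGR3 the lowest at 0.04, and within each gene the libraries lie close together compared with the distance from KLF6 to EGR3.

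None of the 10 genes passed the test of relaxin-2 against untreated. In edgeR's quasi-likelihood test over 16740 genes the Benjamini-Hochberg adjusted p had to be under 0.05, and 0% of all tested genes met this (0 genes, with a smallest adjusted p of 0.408). DESeq2 and limma-voom also called 0. Of the 10, 9 had enough reads to be tested, 6 with a log2 fold change above 0 and 3 below, with a median of 0.13 against -0.01 over all tested genes. This count moved with the scaling, to 7 above and 2 below with RLE size factors and to 4 above and 5 below once offsets for GC content and length were added. At an unadjusted p under 0.05 there were 0 of the 9, against 10.8% of all tested genes (1811). The groups did not overlap in 2 of the 9, KLF4 and KLF6, and 21.4% of all tested genes had groups that did not overlap, a share close to that of the set.

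**Figure D2:**
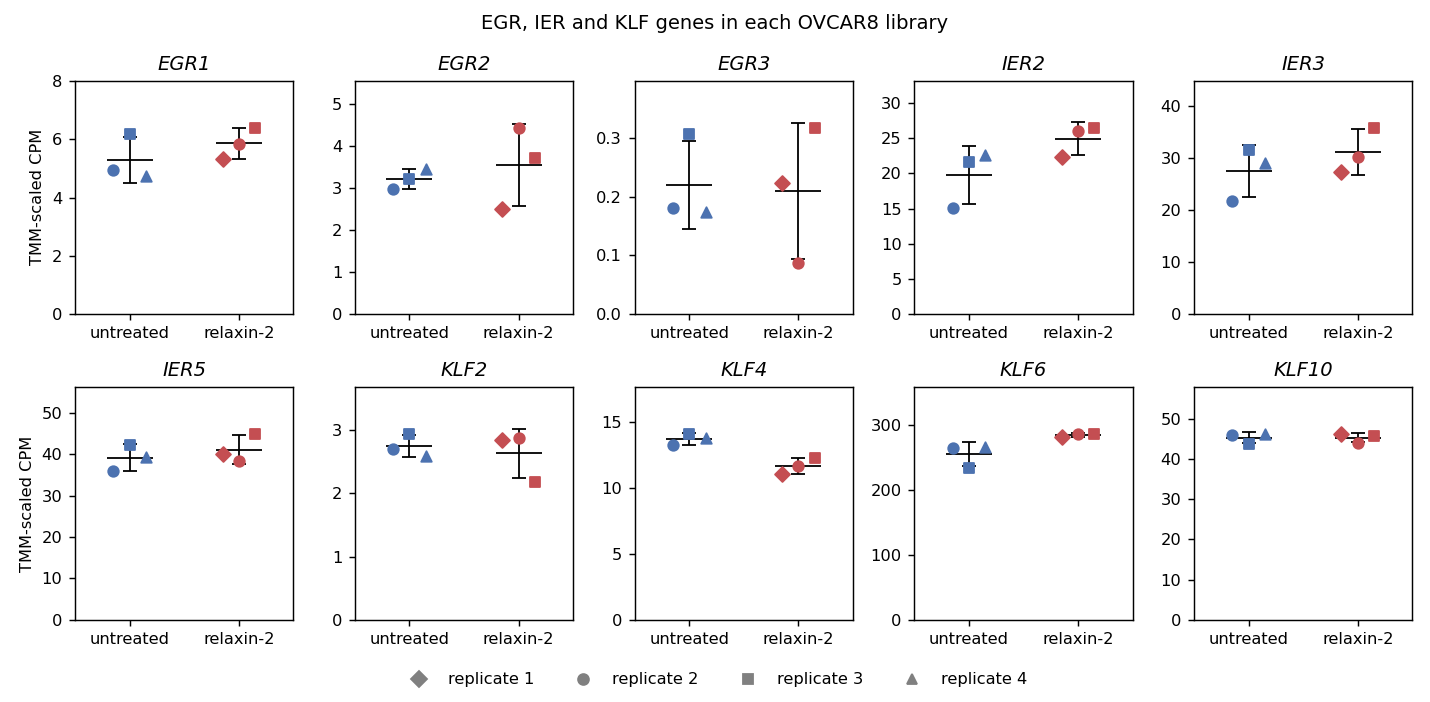
TMM-scaled CPM of the 10 genes in every library on linear axes that start at 0. Coloured symbols are libraries, with the shape giving the replicate number, and black bars are the mean ± SD of 3 libraries. The untreated and relaxin-2 libraries are apart in KLF4 (13.3 to 14.1 against 11.1 to 12.3) and KLF6 (235 to 267 against 282 to 287) and overlap in the others.

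The libraries differed in a way that bears on these genes. Gene reads ran from 11939148 to 22426768 per library, and every pair of libraries differed by more than sampling noise (chi-square per degree of freedom of at least 2.63). The median deviation of GC-rich genes (at least 56.0% GC) minus that of GC-poor genes (at most 43.5%) was -0.90 on the log2 scale in untreated replicate 2, -0.06 in replicate 3 and 0.10 in replicate 4. In the relaxin-2 libraries 1, 2 and 3 it was 0.04, 0.47 and 0.36. Untreated replicate 2 stood apart on this measure, and relaxin-2 replicates 2 and 3 were the highest. Relaxin-2 replicate 2 stood apart as well. It had the fewest gene reads and 27.0% multimapping reads against 5.31% to 6.19% in the other libraries, and its chi-square per degree of freedom was 43.7 to 98.2 against each of them. Without it the log2 fold change (relaxin-2 against untreated) was 0.16 for KLF6, -0.23 for KLF4, 0.31 for IER2, 0.20 for IER3, 0.15 for EGR1, 0.12 for IER5, 0.02 for KLF10, -0.03 for EGR2 and -0.14 for KLF2, and none passed. Mean transcript GC content was 66.8% in KLF2, 64.0% in IER2, 62.3% in EGR3, 58.4% in IER3, 57.2% in KLF4 and 55.4% in EGR1, and 46.2% to 52.7% in KLF10, EGR2, IER5 and KLF6. Offsets that remove each library's trend on GC content and transcript length were fitted as an alternative, and their value stands beside that of each tested gene of the set. As the trend partly follows the groups, trend and treatment cannot be fully told apart.

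EGR1, the best known of the early growth response factors, was present at a low level in every library. The gene (ENSG00000120738) spans bases 138465490 to 138469315 of chromosome 5 on the plus strand. It had 110, 141 and 82 reads in untreated replicates 2, 3 and 4, or 4.95, 6.19 and 4.73 CPM. After relaxin-2 it had 96, 67 and 141 reads in replicates 1, 2 and 3, or 5.34, 5.84 and 6.41 CPM. The groups overlapped, since untreated replicate 3 lay above relaxin-2 replicates 1 and 2. The log2 fold change of EGR1 was 0.15 ± 0.16 (SE) with a 95% interval of -0.23 to 0.52 (edgeR adjusted p = 0.617). On the linear scale this interval runs from 0.85-fold to 1.44-fold. The offsets gave -0.08. Leaving out 1 library moved EGR1 to between 0.07 (relaxin-2 replicate 3) and 0.28 (untreated replicate 3).

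EGR2, which drives myelination and T cell programs in other tissues, had 2.97, 3.20 and 3.46 CPM untreated and 2.50, 4.44 and 3.73 CPM after relaxin-2. The relaxin-2 libraries lay on both sides of the untreated ones. Its log2 fold change was 0.13 ± 0.22 (95% interval -0.38 to 0.65, edgeR adjusted p = 0.745), and it was 0.33 when relaxin-2 replicate 1 was left out and -0.03 when replicate 2 of that group was. The offsets gave 0.14. The direction of EGR2 thus turned without relaxin-2 replicate 2, and it also turned with 1 surrogate variable (-0.10).

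EGR3, a further family member that EGR1-inducing signals also switch on, was barely detected and was not tested. It had 4, 7 and 3 reads untreated and 4, 1 and 7 reads after relaxin-2. Summed, 14 reads gave 0.227 CPM (exact Poisson 95% interval 0.124 to 0.380) in untreated and 12 reads gave 0.231 CPM (0.120 to 0.404) in relaxin-2 libraries. These CPM are per all gene reads, without TMM scaling. The intervals cover counting error only, and a small or moderate difference could not be seen at this depth. Among reads of the 3 EGR genes EGR1 took 56.3% to 66.2% and EGR3 0.84% to 3.17% per library.

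IER2, a nuclear protein linked to cell motility, had 15.1, 21.6 and 22.7 CPM in untreated replicates 2, 3 and 4 and 22.3, 26.0 and 26.5 CPM in relaxin-2 replicates 1, 2 and 3. The low value was that of untreated replicate 2, and relaxin-2 replicate 1 lay below untreated replicate 4, so that the groups overlapped. The log2 fold change of IER2 was 0.34 ± 0.17 (95% interval -0.05 to 0.72, edgeR adjusted p = 0.408), the farthest from 0 among the 9 tested genes. It was 0.17 without untreated replicate 2, 0.03 with 1 surrogate variable and -0.24 with the offsets. The order of the libraries in IER2 resembled that of the GC-rich genes, lowest in untreated replicate 2 and highest in relaxin-2 replicates 2 and 3. The part of this trend in the difference was not tested beyond these fits.

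IER3, the survival regulator, had 21.8, 31.6 and 29.0 CPM untreated and 27.3, 30.3 and 35.9 CPM after relaxin-2. Untreated replicate 2 was again the lowest, and untreated replicate 3 exceeded relaxin-2 replicates 1 and 2. Its log2 fold change was 0.18 ± 0.16 (95% interval -0.19 to 0.56, edgeR adjusted p = 0.539), and it was 0.04 without untreated replicate 2, 0.07 without relaxin-2 replicate 3, 0.30 without untreated replicate 3 and -0.14 with the offsets. IER5, the heat shock related member, was more even, with 35.9 to 42.4 CPM untreated and 38.3 to 45.0 CPM after relaxin-2. Its log2 fold change of 0.07 ± 0.10 had a 95% interval of -0.17 to 0.31, or 0.89-fold to 1.24-fold (edgeR adjusted p = 0.704). IER5 stood at 0.00013 without relaxin-2 replicate 3, 0.01 without untreated replicate 2, 0.13 without untreated replicate 3 and 0.12 without relaxin-2 replicate 2, and the offsets gave 0.07. IER5 took 40.5% to 49.3% of the reads of the 3 IER genes, the largest share in every library.

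KLF6 was the most abundant of the 10 and one of the 2 whose groups did not overlap. The gene (ENSG00000067082) lies on the minus strand of chromosome 10, from 3775996 to 3785281. It had 265, 235 and 267 CPM in untreated replicates 2, 3 and 4 and 282, 286 and 287 CPM in relaxin-2 replicates 1, 2 and 3. All relaxin-2 libraries lay above all untreated ones, as in 10.8% of all tested genes (groups apart and higher), and the untreated libraries spread more widely. The means were 256 ± 18.2 and 285 ± 2.58 CPM (SD, n = 3 libraries each). The log2 fold change of KLF6 was 0.16 ± 0.07 (95% interval -0.0047 to 0.32, edgeR adjusted p = 0.408). It was 0.10 without untreated replicate 3, the lowest library, and 0.06 with the offsets. It stayed above 0 in all 23 alternatives, with adjusted p from 0.238 to 0.919. As the groups are apart, leaving libraries out could hardly turn this direction. KLF6 supplied 79.5% to 83.0% of the reads of the 4 KLF genes in each library.

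KLF4, which restrains proliferation in epithelia, was the other gene with separate groups. KLF4 (ENSG00000136826) lies on the minus strand of chromosome 9, from 107484852 to 107490482. It had 13.3, 14.1 and 13.8 CPM untreated (295, 322 and 239 reads) and 11.1, 11.7 and 12.3 CPM after relaxin-2 (199, 134 and 271 reads). Here the relaxin-2 libraries all lay below the untreated ones, as in 10.5% of all tested genes (groups apart and lower). The means were 13.7 ± 0.43 and 11.7 ± 0.62 CPM (SD, n = 3 libraries each). The log2 fold change of KLF4 was -0.23 ± 0.11, with a 95% interval of -0.49 to 0.03 or 0.71-fold to 1.02-fold (edgeR adjusted p = 0.408). It stayed below 0 in all 23 alternatives, from -0.63 to -0.19, with adjusted p from 0.0215 to 0.766. Here too the separate groups mean that leaving libraries out could hardly turn the direction. The offsets took KLF4 to -0.53 (adjusted p = 0.374). The only pass came with the replicate number as a block together with these offsets (-0.63, edgeR adjusted p = 0.0215). That fit had 1 residual degree of freedom and called 448 of 16740 tested genes.

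KLF2, a factor of endothelial and lymphocyte quiescence that is close to KLF4 in sequence, had few reads. It had 2.70, 2.94 and 2.59 CPM untreated and 2.84, 2.87 and 2.18 CPM after relaxin-2. Only relaxin-2 replicate 3 stood below the others, and the groups overlapped. The log2 fold change of KLF2 was -0.08 ± 0.18 (95% interval -0.49 to 0.33, edgeR adjusted p = 0.814), and it was 0.05 without relaxin-2 replicate 3. The offsets took KLF2 to -0.79, and the block as well to -1.25 (edgeR adjusted p = 0.00734, over all alternatives from 0.00734 to 0.962). The fit with block and offsets had 1 residual degree of freedom and called 448 of 16740 tested genes. KLF2 has the highest GC content of the 10, and the part of GC content against length in this move was not tested.

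KLF10, the TGF-beta inducible member, had the fold change closest to 0. It ran from 43.6 to 46.2 CPM untreated and from 43.9 to 46.1 CPM after relaxin-2, and its log2 fold change was -0.00025 ± 0.08 (95% interval -0.18 to 0.18, edgeR adjusted p = 0.999). This interval corresponds to 0.88-fold to 1.13-fold for KLF10 in this fit, and other settings move it. The offsets gave 0.08, and library size scaling gave -0.03.

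**Figure D3:**
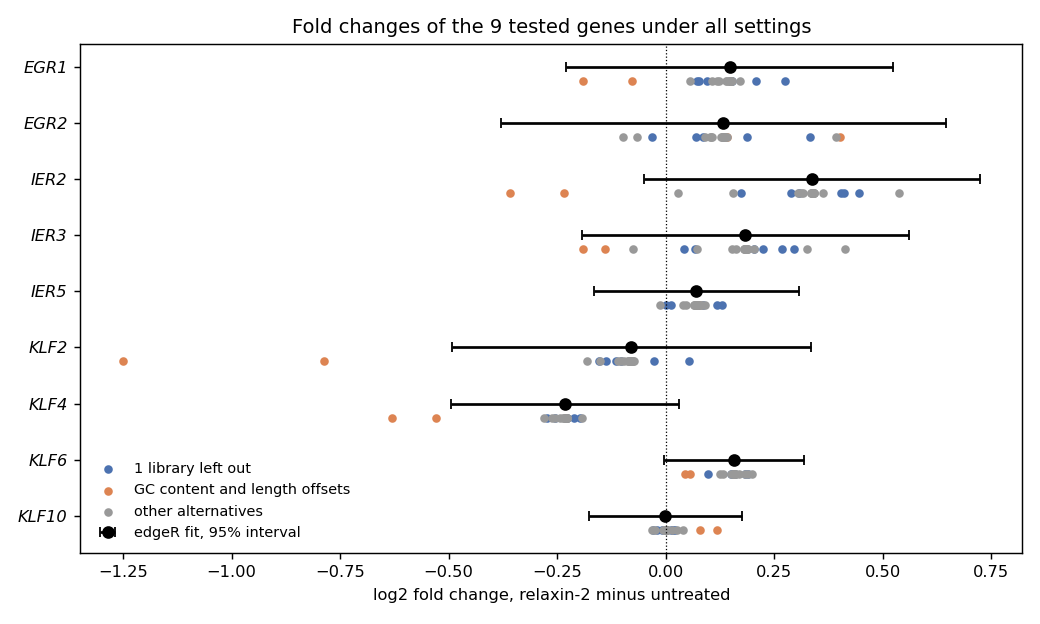
Log2 fold change (relaxin-2 minus untreated) of the 9 tested genes, with black points and 95% intervals from the edgeR fit and small points below them for the alternatives: 1 library left out (blue), GC content and length offsets with or without the replicate block (orange), others (grey). Every interval includes 0. The orange points lie on the other side of 0 in EGR1, IER2 and IER3, and in KLF10 (0.08 and 0.12), whose black point is at -0.00025. They lie far below 0 in KLF2 (-0.79 and -1.25), while KLF4 stays below and KLF6 above 0 at every point.

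Ratios of reads within a library need no scaling factor. These pairs were chosen after the values had been seen and are a description. There were 20.0, 16.6 and 19.4 KLF6 reads per KLF4 read in untreated replicates 2, 3 and 4 and 25.5, 24.5 and 23.3 in relaxin-2 replicates 1, 2 and 3. That the groups are apart in this ratio follows from the separate groups of KLF6 and KLF4 and adds nothing to them. The ratio of KLF6 to KLF10 reads was 5.38 to 5.78 untreated and 6.12 to 6.52 after relaxin-2. Such ratios still carry any library trend on GC content or length. With the offsets the log2 fold change was 0.06 for KLF6 and 0.08 for KLF10, so KLF6 no longer exceeded KLF10. EGR1 reads per EGR2 read overlapped between the groups, with 1.37 to 1.93 untreated and 1.31 to 2.13 after relaxin-2. IER5 reads per IER2 read overlapped too, with 1.74 to 2.38 and 1.47 to 1.80.

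Profiles close to those of a lead gene of each family were sought among the 13074 genes whose mean log2 CPM reached 1, by the root mean square distance of centred log2 CPM over the 6 libraries. EGR1 was nearest to GRTP1 (0.02), ZNF521 (0.03) and PTGFRN (0.05), against a median distance of 0.22. IER2 was nearest to COL4A1, KIAA0930 and CLSTN1, each at 0.02, against a median of 0.30. KLF6 was nearest to an unnamed gene (ENSG00000263731), TAF3 and GOLM1, each at 0.02, against a median of 0.19. No other gene of the set was among these neighbours. With 6 libraries such matches only describe the order and spacing of the libraries.

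The remaining genes of the 3 families also gave 0 calls. EGR4 had 16 reads in all and was not tested. IER5L, a relative of IER5, averaged 1.36 ± 0.12 CPM without relaxin-2 and 1.80 ± 0.29 CPM with it (log2 fold change 0.39 ± 0.21, edgeR adjusted p = 0.410), and -0.24 with the offsets. Of 14 other KLF genes 11 were tested, 5 with a value above 0 and 6 below, and 0 passed. The split was 6 and 5 with RLE scaling and 3 and 8 with the offsets. KLF16, a GC-box repressor, had the smallest p among them, at 4.67 ± 1.79 CPM without relaxin-2 and 7.51 ± 1.38 CPM with it (log2 fold change 0.68 ± 0.30, edgeR adjusted p = 0.408). Leaving out untreated replicate 2 gave 0.39, and the offsets gave -0.15. KLF12, an AP-2 alpha repressor, had 66.3 ± 6.44 and 57.8 ± 0.63 CPM (-0.20 ± 0.09, edgeR adjusted p = 0.408, -0.08 with the offsets). KLF1 had 0 reads, KLF18 had 1 and KLF17 had 3.

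The corepressors of the EGR proteins did not pass either. NAB2, the more inducible of the pair, averaged 18.8 ± 5.50 CPM without relaxin-2 and 26.0 ± 1.96 CPM with it, with a log2 fold change of 0.47 ± 0.21 (edgeR adjusted p = 0.408). Leaving out untreated replicate 2 gave 0.24, and the offsets gave -0.04. NAB1 had -0.12 ± 0.09 (edgeR adjusted p = 0.483), and it was -0.04 without untreated replicate 2, 0.03 with 1 surrogate variable and -0.00044 with the offsets.

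Among the factors that drive immediate early genes all 11 were tested, 6 with a value above 0 and 5 below, with a median of 0.02 and 0 past the threshold. With upper-quartile or library size scaling 5 were above 0. ELK1, the ERK-activated partner of serum response factor, averaged 13.7 ± 1.90 CPM without relaxin-2 and 18.2 ± 2.09 CPM with it (log2 fold change 0.41 ± 0.15, edgeR adjusted p = 0.408, 0.08 with the offsets). MEF2D, a calcium-responsive factor, had 11.1 ± 3.51 and 16.7 ± 1.67 CPM (0.59 ± 0.23, edgeR adjusted p = 0.408). MEF2D stood at 0.35 when untreated replicate 2 was dropped, and the offsets gave 0.19.

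Other immediate early genes lay above 0 more often than below. All 22 were tested, 17 had a value above 0 and 5 below, with a median log2 fold change of 0.17 against -0.01 over all tested genes, and 5 had an unadjusted p under 0.05, against the 10.8% above. None passed over all genes. JUN, an AP-1 subunit, had the smallest p, at 63.9 ± 8.14 CPM without relaxin-2 and 85.2 ± 8.05 CPM with it (0.41 ± 0.11, edgeR adjusted p = 0.408), and FOSL1, its partner, had 0.45 ± 0.18 (edgeR adjusted p = 0.408). Under the offsets 7 of the 22 lay above 0 and 15 below, with a median of -0.06, and JUN was at 0.13 and FOSL1 at 0.04. Without untreated replicate 2 FOSL1 was at 0.28. The direction of this list thus turned with the offsets, as it did for EGR1, IER2 and IER3. FOS, the classical companion of EGR1, was at 0.02, at -0.01 with library size scaling and at -0.41 with the offsets.

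**Figure D4:**
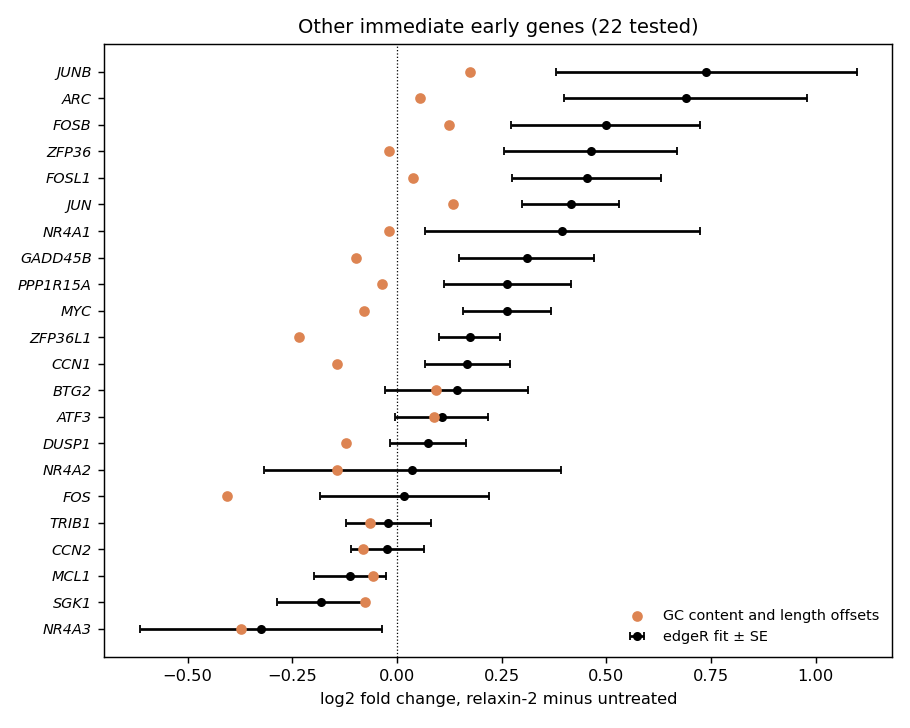
Log2 fold change (relaxin-2 minus untreated) of 22 other immediate early genes, with black points and bars for the edgeR estimate ± SE and orange points for the estimate with GC content and length offsets. The black points lie above 0 in 17 of the 22 genes and the orange points in 7.

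Of 6 genes whose proteins bind AU-rich mRNAs, 5 had a value above 0 and 1 below, and 0 passed. KHSRP, a decay factor, averaged 147 ± 22.2 CPM without relaxin-2 and 191 ± 21.1 CPM with it (0.38 ± 0.13, edgeR adjusted p = 0.408), and ZFP36L1, of the TTP family, had 106 ± 1.92 and 120 ± 8.65 CPM (0.17 ± 0.07, edgeR adjusted p = 0.408). With the offsets these were -0.09 and -0.23, and 2 of the 6 lay above 0.

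Epithelial and ovarian lineage transcripts were present in every library, although KRT19 and MUC16 were nearly absent. The 7 ovarian carcinoma markers summed to 1365 to 2296 CPM untreated and 2118 to 2552 CPM after relaxin-2, carried by KRT18 and KRT8, with PAX8, EPCAM and WT1 also tested and the 2 absent markers at 4 reads each. KRT8 had a log2 fold change of 0.47 and KRT18 of 0.17, which the offsets took to 0.19 and -0.10. Fibroblast markers summed to 1.62 to 2.59 and 1.31 to 2.34 CPM, with DCN at 0 reads, and endothelial markers to 1.71 to 2.31 and 2.11 to 2.87 CPM, with CLDN5 at 0. Leukocyte markers summed to 0.09 to 0.23 and 0.06 to 0.27 CPM, with CD3E at 0. Mesothelial markers, chiefly MSLN, which ovarian carcinoma cells also express, summed to 11.4 to 32.6 and 33.1 to 47.6 CPM. MSLN had a log2 fold change of 0.84, which the offsets took to 0.32, 1 surrogate variable to 0.04 and leaving out untreated replicate 2 to 0.46. LRRN4 had 0.56 ± 0.19, with its groups apart (edgeR adjusted p = 0.408), and -0.04 with the offsets. The part of these markers in the values above was not tested.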

How the data were processed

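Stranded total RNA libraries were counted per gene with STAR on hg38, per the submitters' processing notes. The deposited values are raw counts in unstranded, forward and reverse columns per library, plus a merged table. Neither the STAR version nor the annotation is given in the sources used here. For this work the reverse column was used (17.8 to 19.8 times the forward reads). All 24635 IDs of the merged table with counts equalled it. Lines for unmapped (6.73% to 17.4%), multimapping (5.31% to 27.0%), no-feature (17.5% to 32.0%) and ambiguous (2.36% to 4.18%) reads were left out. The 10 genes were matched by symbol in the merged table. Lengths, exons and coordinates came from GENCODE 29 on GRCh38 and promoters from RefSeq on GRCh38.p14.

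Treatment was the single term of a model over all 6 libraries, fitted after edgeR's default filter and TMM scaling: edgeR 4.0.16's quasi-likelihood test, two-sided, Benjamini-Hochberg adjusted over all tested genes (R 4.3.3, limma 3.58.1). Intervals are 95%. The 23 alternatives included DESeq2 1.42.0, limma-voom, other scalings and filters, unstranded counts, GC content and length offsets (natural splines, 4 degrees of freedom each), 1 surrogate variable (sva 3.50.0), the replicate block and each library left out. Named genes are the 10 members, the 2 with the smallest p of each list of related genes, the 3 nearest profiles to EGR1, IER2 and KLF6 (pseudocount 0.5), and list members without enough reads. FOS and the cell type markers were named after their values were seen. Members and lists were chosen with earlier results of these data known. Python 3.11.15, pandas 2.3.3 and matplotlib 3.10.9 were used.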

Additional observations from a re-analysis of the deposited data

How the results depend on the processing

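Of 207 values of the 9 tested genes under the 23 alternatives, 179 kept their direction and their side of the threshold, 26 turned direction and 2 passed the threshold. A robust quasi-likelihood fit and a threshold of 0.10 were among the alternatives. Both gave the fold changes of the main fit, so no direction could turn under them. KLF4 and KLF6 kept their direction throughout. Their groups do not overlap, so leaving libraries out could hardly turn them, and those alternatives add little to the separate groups. The count of genes past the threshold was 0, and it was 120 with no filter on low counts, 7 with 1 surrogate variable, 3 without both libraries numbered 2, and 0 to 3 with 1 library left out, where untreated replicate 2 gave the 3. None of these calls was among the 10 genes. With the replicate block 1 gene passed. With the block and the GC content and length offsets together 448 of 16740 tested genes passed, 2 of them KLF2 and KLF4. That fit had 1 residual degree of freedom. The numbers 2 and 3 are shared by the groups. Deviations of same-numbered libraries correlated at -0.54 and 0.30, and those of other pairs at -0.69 to 0.73. As these deviations are centred within each small group, they cannot show whether same-numbered libraries were prepared together. The labels do not say.

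With the offsets EGR1 was -0.076, IER2 -0.24, IER3 -0.14 and KLF10 0.079, and with offsets and replicate block these were -0.19, -0.36, -0.19 and 0.12. With 1 surrogate variable EGR2 was -0.10, IER3 -0.075, IER5 -0.012 and KLF10 0.025. Without both libraries numbered 2 EGR2 was -0.066 and KLF10 0.039. With 1 library left out EGR2 ran from -0.031 to 0.33, KLF2 from -0.15 to 0.054 and KLF10 from -0.028 to 0.021. KLF10, at -0.00025, also turned with DESeq2 (0.0032), limma-voom (0.0043), RLE scaling (0.0025), no filter (0.0020), unstranded counts (0.015), the merged table (0.0029) and the replicate block (0.0010). The cause was not tested. EGR3 could be fitted only with no filter on low counts, where its log2 fold change was 0.04 ± 0.67. Depth limits EGR2, EGR3 and KLF2, with at most 82 reads in a library.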

Other observations

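Genes annotated on the opposite strand in GENCODE 29 overlap 3 of the 10 genes. Counting without strand changes the reads of IER3 and IER2 among them. IER3 (chromosome 6, 30743199 to 30744554, minus strand) lies under the antisense gene IER3-AS1. It had 3338 reads over the 6 libraries on its own strand and 1461, or 43.8%, in the unstranded column, where reads that fit 2 genes are left out. The log2 fold change of IER3 was 0.41 in that column against 0.18 with strand, and neither value passed edgeR's test. IER2 (chromosome 19, 13150415 to 13154908, plus strand) shares its place with AC011446.2 and kept 1901 of 2504 reads, or 75.9%. EGR3 (chromosome 8, 22687659 to 22693302) overlaps AC055854.1 and had 26 reads either way. EGR2 (chromosome 10, 62811996 to 62919900, minus strand) had 25 reads on the opposite strand beside 377 on its own, 6.22% of the total, with no annotated gene there. In the other 9 genes that share was at most 0.68%.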
